A study of Mus musculus with 4 samples.

Results

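Convergent gene pairs are neighbours that lie on opposite strands and are read towards each other, so that their 3' ends meet. The pairs described here are 774 pairs of protein-coding genes whose exons share at least 1 base at those ends, out of 4597 opposite-strand gene pairs of any kind that share exon bases in the annotation. The rule uses coordinates, gene type and symbols and no counts: the plus-strand gene had to start before the minus-strand gene starts and end before it ends, and 9 pairs with a ribosomal protein symbol were left out. The 774 pairs hold 1540 genes, 7.08% of the 21764 protein-coding genes and 3.04% of the 50600 genes listed. Gene counts came from 4 total RNA-seq libraries, each made from mouse T-helper 2 cells. This type of CD4 T cell is known for making interleukin 4. The cells were primary cells of strain C57BL/6NJ, differentiated in culture, and all 4 libraries carry the same donor identifier. Sex was not collected, the age is unknown, no genotype change or treatment is labelled, and only the file headers name a time, 16 hours. The libraries, called replicates 1 to 4, form 1 group, so values are compared within libraries. A p-value then covers only how much these samples vary, and that spread may be technical.

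At a convergent pair, transcription of each gene can run into the last exon of the other, and RNAs that both use their annotated ends are complementary to each other over the shared bases. The end of most mRNAs is set by cleavage and polyadenylation, guided by a short hexamer in the RNA, most often AAUAAA, a little upstream of the cut. Because the shared bases belong to exons of both genes, only the strand of a read can assign it to either of them. The tables were counted with strand option 1, per the file headers. The library kit and the orientation of its reads are not given in the sources used here, and whether the counted strand is that of the transcripts was not tested. All counts below are therefore counts listed under a gene on the counted strand, and which gene of a pair made the RNA was not tested. If the opposite strand was counted, counts under a gene came from RNA of the other strand over its exons, shared or not. Neither the ratio of the genes' own levels nor their level per kilobase of exon could then be read from these counts.

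The annotated ends of the pairs with most counts show how the genes meet. The last 30 bases of a transcript that ends at the end of the gene are given 5' to 3' on that gene's own strand, from GENCODE release M21 on the same mm10 build, with the hexamer AATAAA or ATTAAA (the DNA form of the signal and of its common variant) in capitals. They are shown for 4 of the 10 pairs with the most counts, those in which both genes carry a hexamer in that window.
Phykpl, chromosome 11, ends at 51604489, plus strand: tttaaatgtAATAAAaacaaaaccccgtct
Hnrnpab, chromosome 11, ends at 51600100, minus strand: gttttcttaAATAAAttgagggagaccttg
Tsr1, chromosome 11, ends at 74909342, plus strand: gcactttAATAAAagttgtatctgataact
Srr, chromosome 11, ends at 74906359, minus strand: cgccatctcttcAATAAAacttttgtttac
Ptbp1, chromosome 10, ends at 79864771, plus strand: tgtactcacATTAAAtcttaaaaaaaattc
Plppr3, chromosome 10, ends at 79860475, minus strand: accaggccATTAAAttcaatctactaggga
1700022I11Rik, chromosome 4, ends at 42983640, plus strand: ctcatattttaAATAAAatcgcattaatca
Vcp, chromosome 4, ends at 42979963, minus strand: aaaggacAATAAAtgttgggtcaaaatgga

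In each of these pairs the minus gene's end lies to the left of the plus gene's end and within the span of the plus gene, and the reverse holds for the plus gene's end. Searched on the gene's own strand only, AATAAA was in the last 30 bases of 47.9% of the 1450 member genes with a matching transcript end and ATTAAA in 13.9%. Either hexamer was in 870 of them, or 60%. The same search over all 20014 protein-coding genes with a matching end found AATAAA in 50.6%, ATTAAA in 13% and either in 61.9%. A match is a description of these letters and not a mapped cleavage site.

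Where the overlap was short, the whole shared stretch can be shown. The mitochondrial pair mt-Nd5 and mt-Nd6 shares 14 bases (mitochondrial genome, 13552 to 13565). Bola2 and Coro1a share 26 bases (chromosome 7, 126699773 to 126699798), and there each strand carries an AATAAA of its own. The latter pair was picked after its values were seen.
mt-Nd5, plus strand: ttaatctcgagtaa
mt-Nd6, minus strand: ttactcgagattaa
Bola2, plus strand: gtaccagaaAATAAAgccgttttatt
Coro1a, minus strand: AATAAAacggctttattttctggtac

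The overlaps ranged from 1 base, in 3 pairs, to 4652 bases, with a median of 305 and quartiles of 96.25 and 804 bases. They were 1 block in 549 pairs and several blocks in the others. A median of 7.96% of a member gene's exon bases lay inside the overlap. In 458 pairs neither gene shared an exon base with any further gene on either strand. Only 8 genes sat in more than 1 pair, and 123 member genes also had a divergent partner, a gene read away from them with overlapping 5' ends. Member genes had a median of 4311.5 exon bases, against 3033 in the 16885 protein-coding genes with no exon opposite, which are called unopposed genes here.

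The libraries held 1688658, 1705096, 2222583 and 1881293 counts. Levels are in CPM, a gene's count scaled to a library total of 1000000. A gene listed at 0 may still have had up to 3 counts, or 1.78 CPM in the shallowest library and 1.35 in the deepest, a limit that covers counting error only. Of the T cell markers, 18 of 18 had counts in all 4 libraries, with a summed level of 741 CPM or more, of which the member gene Cd247 is a large part: without it the highest sum was 354 CPM. Of 15 Th2 markers, 5 were at 0 in all libraries, among them the cytokine genes Il5, Il13 and Il10. The Th2 list summed to 274 to 382 CPM, and to at most 163 CPM without its member genes Stat6, Junb and Ptgdr2. Defining markers of other cells were at 0 for 7 of 8 genes in the CD8 and NK list and 4 of 6 in the B cell list. In the myeloid list 8 of 11 were at 0, and without the member gene Csf1r its highest sum was 13.5 CPM. Only 49.7% of the unopposed genes had a count in any library, so a 0 for a marker does not show that a cell type was absent. In replicate 3 the noncoding entry CT010467.1 took 9.40% of the counts, against 1.29% in replicate 1, 5.05% in replicate 2 and 1.62% in replicate 4.

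The shares below would include reads of the genes opposite if the opposite strand was counted, which was not tested. As listed, the genes of convergent pairs carried a large part of each library. They held 34.3, 33.3, 30.9 and 33.3% of all counts in replicates 1 to 4, a mean of 33.0 ± 1.44% (SD, n = 4), although they make up 3.04% of the listed genes and 6.5% of the listed exon bases. Within protein-coding genes their share was 61.5 ± 1.46% (SD, n = 4). A share above that of their number was not particular to convergent genes: divergent genes, 1.76% of the listed genes, held 10.4 ± 0.341% of all counts and 19.4 ± 0.668% of the protein-coding ones (SD, n = 4), and 123 of them are also members. The 3261 protein-coding genes with any exon opposite that are not members held 13.6 ± 0.473% of all counts. The unopposed genes, 33.4% of the list and 55.0% of its exon bases, held 6.65 ± 1.27% (SD, n = 4). The lowest member share was in replicate 3, the library in which CT010467.1 was highest. With that entry out of the totals the mean share was 34.5%. The mitochondrial pair alone moved the mean share from 33.0 to 31.4%.

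Counts were spread unevenly over the pairs. The 10 pairs with most counts held 21.8% of the counts in all pairs and the top 100 held 63.5%. At the other end, 36 pairs had no count in any library, and in 70 pairs at least 1 gene was at 0 throughout. Both genes reached a mean count of 10 in 465 pairs, exactly 1 gene did in 195, and neither did in 114.

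**Figure D1:**
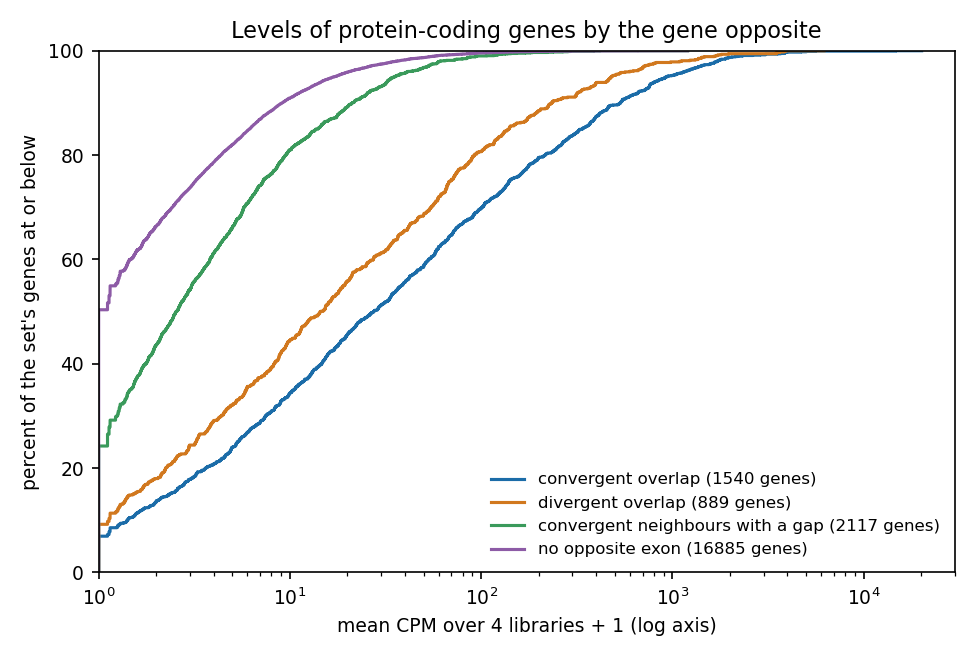
Cumulative share of genes (vertical axis, percent of the set's genes) at or below a level (horizontal axis, mean CPM over 4 libraries plus 1, log axis), with 1 line per gene set. The line for genes of convergent overlapping pairs lies furthest to the right, followed by divergent pairs, convergent neighbours with a gap, and genes with no opposite exon.

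Member genes had a median of 27.8, 24.6, 24.1 and 28.7 CPM in replicates 1 to 4, or 47, 42, 53.5 and 54 counts. A count in all 4 libraries was found for 1304 member genes, 84.7%, and a mean count of 10 or more for 72.6%. The unopposed genes had a median of 0 in each library, with counts in all 4 for 31.3% and a mean count of 10 for 14.6%. The median of log2(CPM + 1) was 4.77 ± 0.12 higher in member genes (SD, n = 4, higher in 4 of 4 libraries). Against a median of 0 this value is set by the pseudocount, and with a pseudocount of 0.1 it was 8.04. The exact sign-flip test (two-sided) gave p = 0.13, which is 2 of 16 sign patterns and the smallest value possible with 4 libraries, so no comparison of this kind can pass 0.05. On the scale of log2(CPM per kilobase of exon + 1), with the unopposed median still at 0, the difference was 2.90. Unopposed genes could list no exon reads of a gene opposite if the opposite strand was counted. This comparison cannot tell that apart from a difference in level.

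Overlapping pairs were set beside 1063 convergent neighbour pairs that do not touch. These have a gap of 1 to 5000 bases between their ends, no protein-coding gene between them and no opposite exon of any gene. Their 2117 genes had medians of 1.18, 1.17, 1.35 and 1.59 CPM, all at or below the level that a count of 0 allows in the same library. Of these genes, 53.8% had a count in all 4 libraries. Having no opposite exon, they could list no exon reads of a gene opposite if the opposite strand was counted. The comparison therefore cannot separate overlap from the strand counted. Overlapping genes were higher by 3.72, 3.56, 3.42 and 3.52 in median log2(CPM + 1), a mean of 3.55 ± 0.13 (SD, n = 4, exact sign-flip p = 0.13). Scaled by exon length, on the scale of log2(CPM per kilobase + 1), the difference was 2.42.

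The 447 divergent pairs, whose 889 genes share exon bases at their 5' ends, were the most similar set. Their genes had medians of 14.2, 12.3, 11.7 and 14.9 CPM, and 79.6% had a count in every library. Convergent genes were higher by 0.92, 0.94, 0.98 and 0.90 in median log2(CPM + 1), a mean of 0.94 ± 0.03 (SD, n = 4, exact sign-flip p = 0.13). The medians of both sets did not overlap across libraries. On the same length-scaled measure the difference was 0.73. Divergent overlaps were shorter, with a median of 170 bases against 305.

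Pairs with longer overlaps carried more counts on the counted strand. Were that strand the opposite one, a gene would list its partner's exon reads only over the shared bases. Counts could then rise with overlap length through the counting itself, which was not tested. In replicates 1 to 4, Spearman's rho between overlap length and the counts of both genes summed was 0.452, 0.453, 0.464 and 0.454 over the 774 pairs, a mean of 0.456 ± 0.00525 (SD, n = 4 libraries). This is a description across pairs, which share libraries and depth, and a few of which share a gene, so it has no p. In the 458 pairs with no further exon-sharing gene the mean was 0.441. Among the 576 pairs with 100 or more shared bases it was 0.331.

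The relation was present on both strands, with a mean rho of 0.298 for the plus gene and 0.326 for the minus gene. It was 0.453 for whichever gene of the pair had more counts in that library and 0.266 for the one with fewer. Overlap length ordered the counts of single genes more closely than their own exon length did, with rho of 0.312 against 0.143 over 1548 gene entries. Summed exon length of the pair gave 0.157. In unopposed genes, exon length and count had a rho of 0.327 over 16885 genes. Counts of the plus and minus gene of a pair were related with a rho of 0.334.

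**Figure D2:**
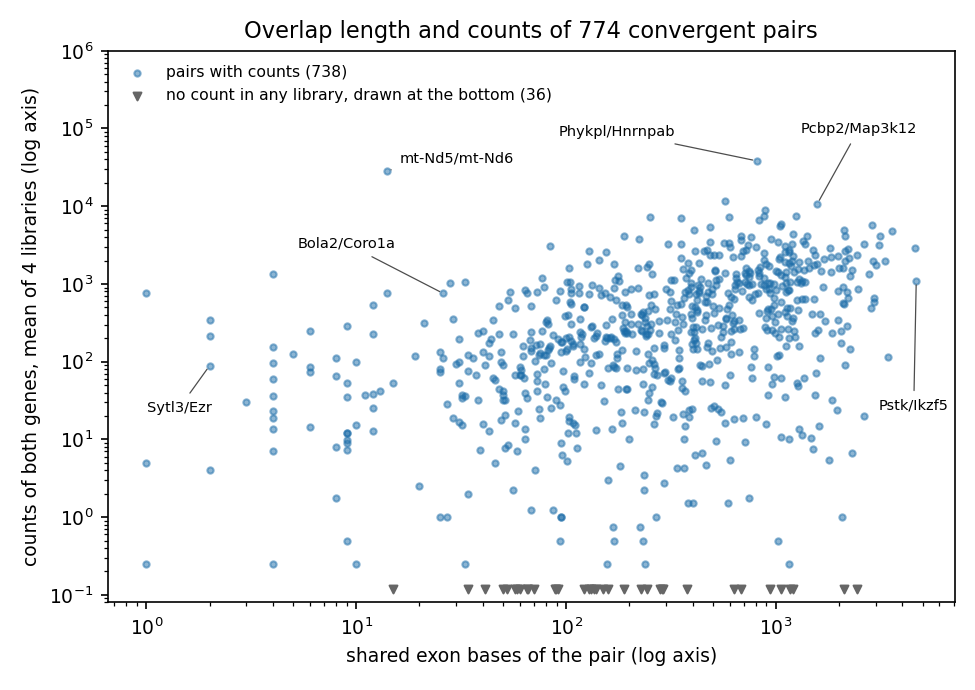
Each point is 1 of 774 pairs, with its shared exon bases on the horizontal axis and the counts of both genes summed, as the mean of 4 libraries, on the vertical axis (both log axes). Triangles at the bottom are the 36 pairs with no count. The cloud climbs from left to right, while the mitochondrial pair mt-Nd5 and mt-Nd6 stands far above other pairs of its length.

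By overlap length, the median summed level of a pair was 27.2 ± 1.47 CPM for the 108 pairs sharing 1 to 50 bases and 67.6 ± 7.05 for the 206 pairs sharing up to 200 (SD, n = 4). It was 138 ± 7.62 CPM for the 178 pairs sharing over 200 and up to 500 bases, 363 ± 16.9 for the 132 sharing up to 1000 and 454 ± 14 for the 150 sharing more. Every step was larger than the spread between libraries, which does not cover the spread between pairs. Quartiles over pairs overlapped between neighbouring classes. They were 7.09 and 68.7 CPM in the shortest class, 11.4 and 168 in the next, and 110 and 1062 in the longest. The rise was less than proportional to length: counts per 100 shared bases had medians of 281, 124, 82.1, 91.7 and 53.1 in the same order. Spearman's rho between overlap length and counts per shared base was -0.249. Overlap length is part of both values in that rho, which by itself pushes it below 0. The counts are those of the whole genes, so neither value is a density of reads over the shared bases.

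For pairs with a gap, the median was 9.19 ± 0.609 CPM with 1 to 500 bases between the ends, 5.65 ± 1.02 with over 500 and up to 1000, 6.56 ± 0.657 with up to 2000 and 3.23 ± 0.488 with up to 5000 (SD, n = 4). The middle gap classes overlapped in range. Spearman's rho between gap length and count was -0.197 over the 1063 pairs. Genes of the shortest overlaps, 1 to 50 bases, were 1.47 higher in median log2(CPM + 1) than genes of gaps of 1 to 500 bases, a comparison chosen after seeing the data (exact sign-flip p = 0.13).

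Divergent pairs also rose with overlap, from a median of 28.5 CPM at 1 to 50 bases to 51.6, 90.8 and 153 in the next classes. Only 7 divergent pairs shared more than 1000 bases, with a median of 347 CPM. Their rho was 0.245 ± 0.00736 over 447 pairs (SD, n = 4 libraries). The convergent rho was higher by 0.210 ± 0.00307 (SD, n = 4, higher in 4 of 4 libraries, exact sign-flip p = 0.13).

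**Figure D3:**
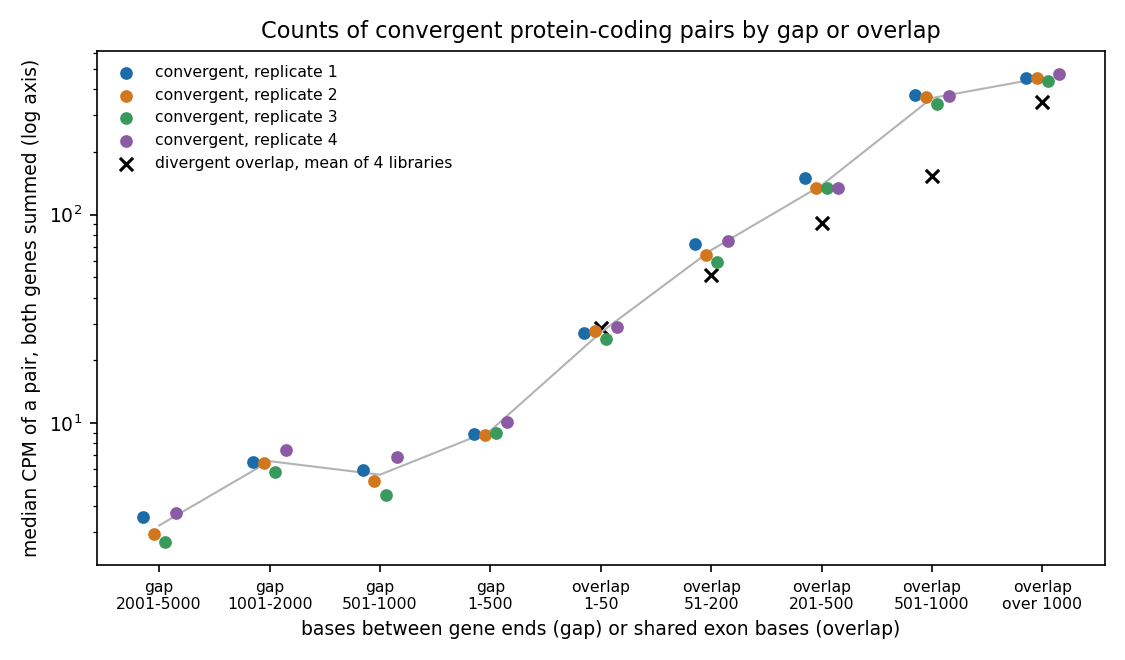
Median CPM of a pair, both genes summed (vertical log axis), by the bases between the gene ends or the shared exon bases (horizontal axis), with 1 dot per library, the grey line through their means and crosses for divergent overlaps. Medians lie between 3.23 and 9.19 CPM across gaps and climb from 27.2 to 454 CPM across overlaps.

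The counts of a pair mostly lay under 1 of its genes. Of the 465 pairs in which both genes had a mean count of 10 or more, the median absolute log2 ratio of the genes' counts was 2.50, with quartiles of 1.14 and 4.21. The ratio was over 4-fold in 275 pairs (59.1%) and over 16-fold in 129 (27.7%), and under 1.5-fold in 55. These shares were not taken for other opposite-strand pairs, so they are not shown to be particular to convergent pairs. The gene with more counts was the same in all 4 libraries in 422 pairs. The SD of the log2 ratio over libraries had a median of 0.313. Per kilobase of exon the median absolute log2 ratio was 2.61, and in 41 pairs the other gene was then the higher.

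The plus gene was higher on average in 237 of the 465 pairs. The gene with more exon bases was the higher in 241. As listed, the imbalance was smaller in short overlaps. The median absolute log2 ratio was 1.45 for pairs sharing 1 to 50 bases and 2.20, 2.78, 2.75 and 2.91 in the longer classes. A floor of 10 counts in both genes limits the ratio most where a pair has few counts. Over all pairs, the median level was 27.2 CPM in the shortest class and 454 CPM in the longest. Whether the imbalance depends on overlap length apart from the counts was not tested.

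In edgeR's quasi-likelihood test of plus against minus gene, with the library as a block and Benjamini-Hochberg adjustment over all opposite-strand pairs, 636 member pairs were tested and 588 differed at an adjusted p under 0.05. The plus gene was higher in 306 and the minus gene in 282. Across all 2688 pairs tested the test called 94.8%, with 48.7% plus higher and 46.1% minus higher, so the members' count is close to that of any opposite-strand pair and is no result about them. A pair that passed the count filter through its high gene alone had to differ. Asking for a mean count of 10 in both genes left 422 of 465 member pairs called (215 plus, 207 minus), beside 91.7% of all 1415 such pairs.

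The pair with most counts was Phykpl and Hnrnpab on chromosome 11. Phykpl, at 51584757 to 51604489 on the plus strand, encodes a lyase of hydroxylysine breakdown, and Hnrnpab, at 51600100 to 51606847 on the minus strand, an RNA-binding protein of the hnRNP family. They share 809 exon bases in 3 blocks, 8.34% of the exon bases of Phykpl and 29.1% of those of Hnrnpab. Phykpl had 33171, 34712, 43343 and 39551 counts in replicates 1 to 4, and Hnrnpab 470, 319, 639 and 1008. The ranges lie far apart, with a log2 ratio of 6.07 ± 0.60 (SD, n = 4, edgeR adjusted p = 2.55e-14). Per kilobase of exon, Phykpl was at 2076 ± 72.5 CPM and Hnrnpab at 116 ± 53.7 CPM (SD, n = 4).

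The mitochondrial pair followed, with subunit genes of respiratory complex I on both strands. The plus-strand gene mt-Nd5 (11742 to 13565) had 993, 1646, 1583 and 1462 counts, and mt-Nd6 (13552 to 14070) had 27391, 25582, 26908 and 29527. Its 14 shared bases are 0.768% of the exon bases of mt-Nd5 and 2.70% of those of mt-Nd6. The log2 ratio of mt-Nd5 to mt-Nd6 was -4.29 ± 0.36 (SD, n = 4, edgeR adjusted p = 2.71e-13). No other pair sharing 50 or fewer bases had as many counts.

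In the other 8 pairs of the top 10, 6 carried most counts under the minus gene. Tcp1, a subunit of the CCT chaperonin (chromosome 17, 12915701 to 12925067), had 1801, 1814, 2673 and 2150 counts, and Acat3, an acetyl-CoA acetyltransferase gene (12923833 to 12940402), had 8339, 8853, 10989 and 9427. This was the least uneven of the 10, with a log2 ratio of -2.17 ± 0.11 over 571 shared bases. Pcbp2, a poly(C)-binding protein gene (chromosome 15, 102470632 to 102500059), had 142, 115, 129 and 151 counts. Its partner Map3k12, a kinase gene best known in neurons (102497649 to 102517064), had 9568, 9188, 14037 and 9503, and shares 1571 bases with it. No library of the lower gene reached the range of the higher one in either pair.

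Apex1, the main endonuclease of base excision repair (chromosome 14, 50924968 to 50927139), had 111, 93, 102 and 130 counts. Opposite it Pip4p1, a phosphoinositide phosphatase gene (50926070 to 50930856), had 7016, 7262, 8513 and 6881 counts, with 877 bases shared. The ribosome maturation gene Tsr1 (chromosome 11, 74898071 to 74909342) had 91, 100, 75 and 112 counts. Srr, the serine racemase gene (74906359 to 74925948), had 6470, 6677, 8382 and 7716 counts and shares 1240 bases with it. The log2 ratio was -6.09 ± 0.30 for Apex1 to Pip4p1 and -6.27 ± 0.35 for Tsr1 to Srr (SD, n = 4).

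Noc2l, a nucleolar protein gene (chromosome 4, 156236010 to 156247616), had 81, 87, 85 and 147 counts against 6936, 6663, 8016 and 7268 for Samd11 (156246966 to 156255657), which shares 598 bases. The splicing repressor gene Ptbp1 (chromosome 10, 79854427 to 79864771) had 82, 64, 46 and 96 counts. Plppr3, a membrane protein gene of the nervous system (79860475 to 79874634), had 7067, 6430, 8524 and 6754 over an overlap of 251 bases. Both minus genes were thus over 16-fold higher in counts in every library.

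The plus gene was higher in the remaining pairs. Tti2, a cofactor that stabilises large PI3K-like kinases (chromosome 8, 31150315 to 31164702), had 8066, 7908, 10512 and 8830 counts. Mak16, a ribosome biogenesis gene (31159463 to 31168764) with 882 bases shared, had 185 in its lowest library and a mean of 204. The uncharacterised gene 1700022I11Rik (chromosome 4, 42969604 to 42983640) had 6108, 6369, 8391 and 6804 counts, while Vcp, the abundant ATPase that unfolds ubiquitylated proteins (42979963 to 43000507), had 38, 30, 31 and 41 over 352 shared bases. For 1700022I11Rik to Vcp the log2 ratio was 7.61 ± 0.35 (SD, n = 4).

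**Figure D4:**
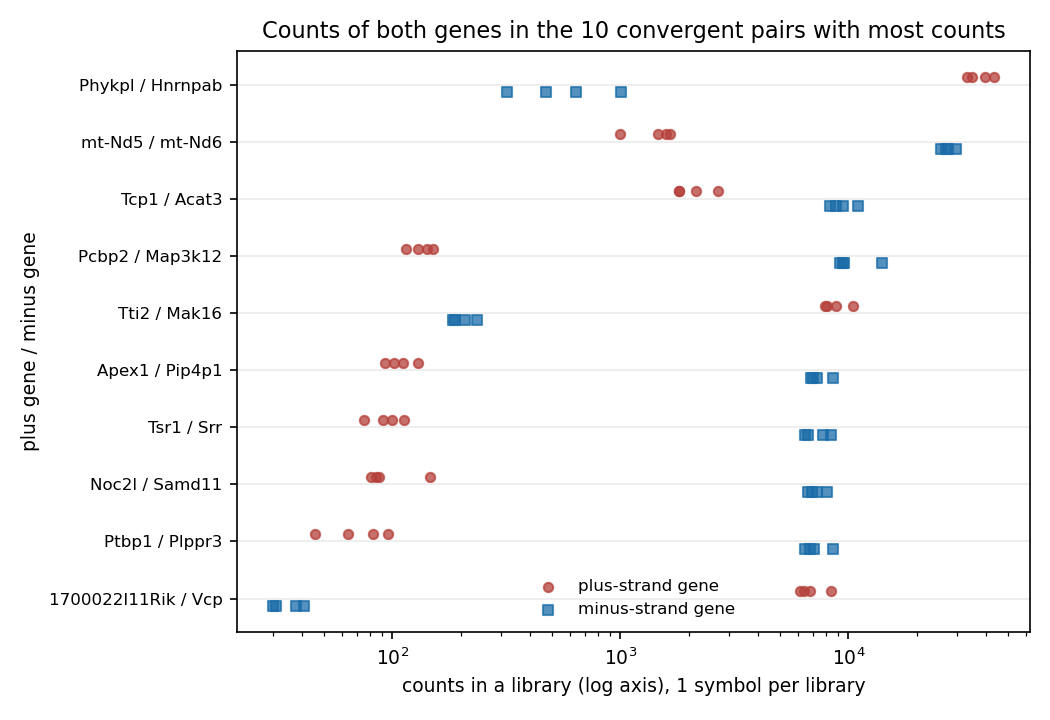
Counts in a library (horizontal log axis) of the plus-strand gene (circles) and the minus-strand gene (squares) for the 10 pairs with most counts, with 1 symbol per library. In every pair the symbols of both genes form separate groups, and the smallest distance is that of Tcp1 and Acat3.

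The longest overlaps held both uneven and moderate pairs. Pstk, the kinase of selenocysteine tRNA (chromosome 7, 131371141 to 131394482), shares 4652 bases with the zinc finger gene Ikzf5 (131388652 to 131410521), 81.3% of the latter's exon bases. Pstk had 966, 936, 1331 and 1064 counts and Ikzf5 had 19, 25, 32 and 30. The nuclear receptor gene Nr2c2 had 307, 302, 482 and 395 counts against 2325, 2362, 2836 and 2551 for Mrps25, a mitochondrial ribosome gene, with 4590 bases shared. Ranges did not meet in either pair.

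Nr1i3, a receptor gene of the liver's xenobiotic response, had 1908, 1961, 2174 and 1931 counts, and its partner Tomm40l, a mitochondrial import gene sharing 3304 bases, had 6, 8, 7 and 9. The log2 ratio of 7.97 ± 0.26 (SD, n = 4) was the widest of the long overlaps given here. The pair with the fewest counts of them was that of Il4i1, an amino acid oxidase gene named for its induction by interleukin 4. Il4i1 had 13, 3, 15 and 7 counts against 114, 71, 135 and 96 for Tbc1d17, with 3423 bases shared.

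Among the shortest overlaps, with at least 10 counts per library for the pair, Ttc19 and Ncor1 share 1 base. Ttc19, a mitochondrial complex III assembly gene, had 283, 297, 351 and 366 counts and the corepressor gene Ncor1 394, 360, 512 and 525. The counts overlapped between the genes, though Ncor1 was higher in each library (log2 ratio -0.45 ± 0.12, SD, n = 4, edgeR adjusted p = 0.00398). Scaled by exon length, Ttc19 was the higher, with a log2 ratio of 1.00.

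Uneven counts also occurred at overlaps of 2 or 3 bases. Palm3 had 355, 246, 377 and 390 counts and the cytokine receptor gene Il27ra 4, 8, 6 and 8, with 2 shared bases. Ezr, which links actin to the membrane, had 98, 58, 76 and 117 counts against 1, 0, 3 and 1 for Sytl3, also with 2. Srrm2, a scaffold gene of nuclear speckles, had from 165 to 287 counts against 7, 10, 9 and 12 for Elob, a short gene of 508 exon bases. Scaled by exon length, Srrm2 and Elob were nearly level, with a log2 ratio of -0.09. The heat shock gene Hspb6 had 26, 19, 39 and 25 counts and Lin37, of the DREAM complex, 5, 2, 2 and 2, with 3 shared bases.

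The 5 widest ratios among pairs with both genes at a mean count of 10 or more were over 16-fold in every library. Psmb7, a catalytic subunit of the proteasome, had 13, 8, 11 and 20 counts, and the mitotic kinase gene Nek6 opposite had 4604, 4549, 5821 and 4763. The log2 ratio of Nek6 to Psmb7 was 8.58 ± 0.56 (SD, n = 4, edgeR adjusted p = 3.29e-17). Ctnnb1, the gene of beta-catenin, had 11, 10, 12 and 21 counts against 3681, 3815, 4655 and 3848 for Ulk4. Ppib, the gene of cyclophilin B in the endoplasmic reticulum, had 25, 27, 13 and 34 against 6471, 6497, 7332 and 6029 for the sorting nexin gene Snx22. In these pairs the ranges lay more than 100-fold apart.

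The iron-sulfur assembly gene Nubp1 had 12, 6, 11 and 16 counts and Tvp23a opposite 3273, 3333, 4132 and 3459. Elk4, an ETS transcription factor gene, had 12, 7, 9 and 13 counts, and the transporter gene Mfsd4a 2721, 2802, 3724 and 3199, although they share only 84 bases. Their log2 ratio was -8.20 ± 0.44 (SD, n = 4).

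The 5 pairs with the smallest count ratios differed by less than the spread between libraries, but 4 of them by more than that spread once scaled by exon length. Rab3gap2, an activator of Rab GTPases, and Iars2, the mitochondrial isoleucyl-tRNA synthetase gene, share 2034 bases. Rab3gap2 had 144, 94, 131 and 124 counts and Iars2 105, 120, 137 and 143. The ranges overlapped and the log2 ratio was -0.04 ± 0.35 (SD, n = 4, edgeR adjusted p = 0.846), or -0.32 per kilobase of exon. Glmp and Tmem79, with 1278 bases shared, had 33, 21, 20 and 25 counts and 20, 27, 27 and 23 (edgeR adjusted p = 0.961), while per kilobase of exon the log2 ratio of Glmp to Tmem79 was -1.10. Polr2b, a core subunit of RNA polymerase II, had 48, 40, 47 and 50 counts and Igfbp7 59, 29, 57 and 52 (edgeR adjusted p = 0.827). Per kilobase of exon Igfbp7 was the higher, with a log2 ratio of -1.99.

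Phrf1 and the interferon regulator gene Irf7 (adjusted p = 0.925, edgeR) and Sgsm3 and Mrtfa (adjusted p = 0.864, edgeR) completed the 5. Phrf1 had 38, 23, 27 and 35 counts and Irf7 27, 26, 46 and 23. Sgsm3 had 17, 14, 26 and 16 and Mrtfa 19, 19, 18 and 13. Scaled by exon length the log2 ratios were -1.29 for Phrf1 to Irf7 and 0.54 for Sgsm3 to Mrtfa. The SD of the log2 ratio in these 5 pairs ran from 0.35 to 0.63, so ratios within that spread could not be resolved at this depth.

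Among genes used as cell type markers, 8 sat in convergent pairs. Cd247, the zeta chain gene of the T cell receptor complex (chromosome 1, 165788681 to 165877277), shares 3007 bases with Pou2f1, a gene of an octamer-binding factor (165865154 to 166002678). Cd247 had 1023, 1026, 1261 and 1217 counts and Pou2f1 574, 589, 713 and 632. Cd247 was higher in each library, with a log2 ratio of 0.85 ± 0.06 (SD, n = 4, edgeR adjusted p = 4.1e-06). Per kilobase of exon the levels were 114 ± 6.11 CPM and 20.2 ± 0.636 CPM (SD, n = 4).

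The Th2 list had 3 members. Stat6, which transmits the interleukin 4 signal, had 36, 42, 55 and 59 counts, below the 207, 199, 163 and 230 of Nab2, with 40 shared bases (log2 ratio -2.06 ± 0.40, SD, n = 4). Ptgdr2, the prostaglandin D2 receptor gene of Th2 cells, had 173, 215, 202 and 175 counts against 25, 10, 14 and 22 for Ccdc86, over 1031 shared bases. Junb, an AP-1 factor gene, had 131, 122, 143 and 123 counts against 27, 54, 67 and 53 for the peroxiredoxin gene Prdx2, over 173 shared bases. The genes' ranges did not overlap in any of these pairs.

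Markers of other cells with high listed counts were members as well. Whether the RNA came from the marker gene or from the gene opposite was not tested, so these counts do not show that the marker was expressed. The same limit holds for Cd247, Stat6, Ptgdr2 and Junb above. Foxp3, the regulatory T cell factor (chromosome X, 7579676 to 7595243), had 707, 725, 858 and 748 counts, and Ccdc22 opposite (7593809 to 7605517) 4, 10, 5 and 5, with 590 bases shared. Csf1r, the macrophage growth factor receptor gene (chromosome 18, 61105572 to 61132149), had 922, 916, 973 and 1018 counts and Hmgxb3 opposite 8, 8, 6 and 7, with 871 bases shared. Both log2 ratios were close to 7, at 6.95 ± 0.56 and 6.96 ± 0.24 (SD, n = 4). In the list that holds Foxp3 the summed level was 481 to 525 CPM and at most 45.2 CPM without its member genes. Il12rb2 had 96, 94, 143 and 99 counts against 494, 454, 471 and 727 for Serbp1. Serbp1 has 20117 exon bases and Il12rb2 3794, and scaled by exon length the log2 ratio of Serbp1 to Il12rb2 was -0.10. Cxcr5 had 7, 8, 7 and 10 counts against 5, 6, 11 and 7 for Bcl9l, a pair too low to be tested.

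Most symbol families held the higher gene of some pairs and the lower gene of others. In pairs with 1 gene of the family, genes of RNA binding and splicing were the higher gene in 4 of 12 tested pairs, the lower in 6 and not called in 2. For translation genes these numbers were 8, 6 and 2 of 16, for the respiratory chain 4, 4 and 2 of 10, for proteasome and ubiquitin genes 9, 9 and 2 of 20 and for vesicle traffic 8, 9 and 1 of 18. Kinases and phosphatases had 8 and 7 of 15. For chromatin and transcription genes they were 5, 11 and 2 of 18, and for DNA replication and repair 8, 11 and 1 of 20. All counts are from the edgeR test above, in which 94.8% of all pairs were called. Some pairs passed the count filter through the high gene alone and so had to differ. With both genes at a mean count of 10 or more, RNA binding and splicing kept its numbers. Translation had 8, 5 and 2 of 15 and the respiratory chain 3, 1 and 2 of 6. Proteasome and ubiquitin had 7, 7 and 2 of 16, and vesicle traffic 5, 7 and 1 of 13. Chromatin and transcription had 3, 9 and 1 of 13, and DNA replication and repair 8, 8 and 1 of 17. Kinases and phosphatases had 8 and 4 of 12.

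Zinc finger genes, mostly transcription factors, were the higher gene in 1 of 19 tested pairs and the lower in 17. With both genes at a mean count of 10 or more they were higher in 1 of 13 and lower in 11. Over their 22 pairs with 1 family gene, the median of the mean counts was 23 for the zinc finger gene and 169 for the partner. The exception was Zfp276, with 572, 541, 639 and 590 counts against 420, 395, 486 and 433 for the DNA repair gene Fanca, and Zfp646 did not differ from Prss53 at an adjusted p under 0.05 (edgeR, adjusted p = 0.703). Both were picked after their values were seen. In the zinc finger pairs with most counts, Pcif1 had 1810, 1754, 2182 and 2155 counts and Zfp335 522, 512, 631 and 591, and Zc3h14 had 32, 28, 71 and 50 against 884, 867, 1329 and 1028 for Eml5. Solute carrier genes lay the other way, higher in 13 of 17 tested pairs and lower in 4. With both genes at a mean count of 10 or more this was 7 and 3 of 10, since pairs such as that of Slc6a20b passed the count filter through the high gene alone. Their median was 95 counts against 11 for the partner over 21 pairs. Slc6a20b, an amino acid transporter gene of epithelia, had 2653, 2589, 3643 and 2781 counts, and Sacm1l opposite, a phosphoinositide phosphatase gene, had 2, 7, 5 and 6. Slc25a35, a mitochondrial carrier gene, had 1899, 1802, 1945 and 1697 counts against 49, 32, 36 and 39 for Rangrf. The families were read from symbols, the lists were drawn with earlier results known, and the difference between families was not tested. No count on the other strand was made, so how the tallies of zinc finger and solute carrier genes would fall there was not tested.

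**Figure D5:**
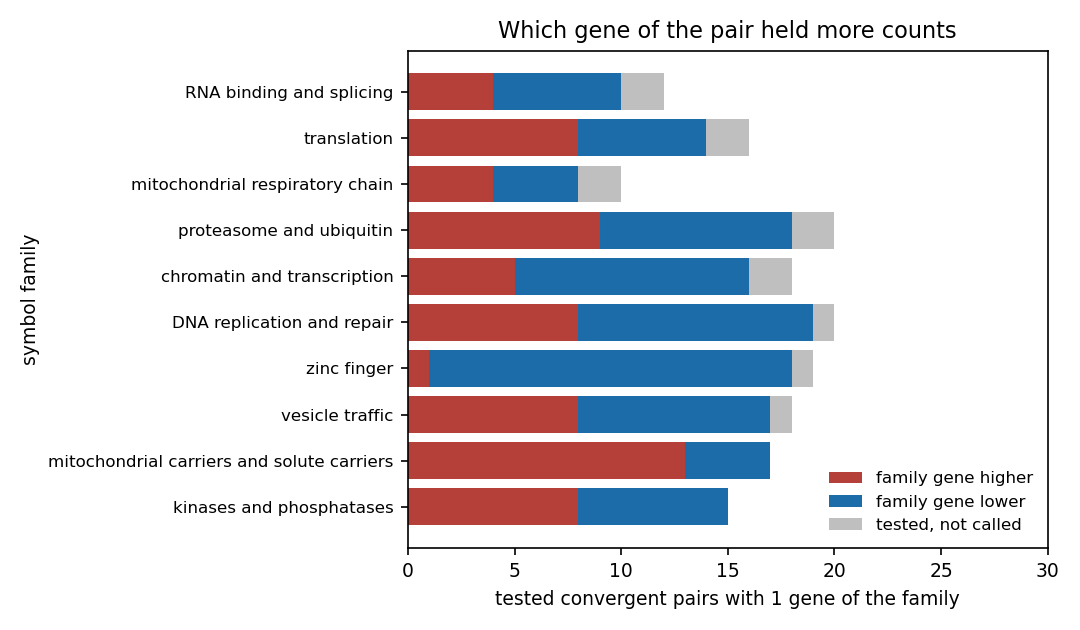
Number of tested convergent pairs with 1 gene of a symbol family (horizontal axis), split by whether edgeR called the family gene higher, lower or neither. Zinc finger genes were lower in 17 of 19 pairs and solute carriers higher in 13 of 17, while proteasome and ubiquitin genes split 9 to 9. Pairs that passed the count filter through the high gene alone are included.

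Further family pairs with many counts ranged from even to very uneven. Cox20, an assembly gene of cytochrome oxidase with 91.1% of its exon bases in the overlap, had 1263, 1103, 1552 and 1574 counts, and Hnrnpu 1439, 1471 and 1617 in replicates 1 to 3 and its highest count in replicate 4. These ranges overlapped, with a log2 ratio of -0.25 ± 0.16 (SD, n = 4, edgeR adjusted p = 0.1), but per kilobase of exon Cox20 was higher by 3.46 on the log2 scale. Usp34, a deubiquitinase gene, had 1320, 1244, 1718 and 1394 against 2459, 2550, 3099 and 2889 for Ahsa2. Taf10, of the transcription factor TFIID, had 3642, 3666, 3815 and 3738 against 1272, 1281, 1262 and 1308 for Ilk. The pairs of Usp34 and Taf10 share over 1000 bases each and kept their order in all libraries.

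In 6 further family pairs the genes' ranges lay far apart. Snrpf, a core protein gene of spliceosomal particles, had 19, 16, 9 and 10 counts against 2800, 2972, 3925 and 3572 for Ccdc38. Uqcrc2, of respiratory complex III, had 13, 19, 11 and 21 against 2153, 2165, 2769 and 2170 for Pdzd9. Arfgap2, of Golgi traffic, had 22, 26, 17 and 25 against 3190, 3155, 3411 and 3295 for 1110051M20Rik. Mrpl24 had 168, 165, 188 and 199 against 3105, 2875, 3515 and 3189 for Rrnad1, and Ppp1ca, a phosphatase subunit gene, 149, 176, 159 and 194 against 3741, 3517, 3734 and 3424 for Rad9a. Gtf3a had 287, 284, 369 and 304 against 2332, 2251, 2803 and 2209 for Mtif3.

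Few member genes varied between replicates beyond genes of like abundance. In an edgeR quasi-likelihood fit with no groups, the upper tail of a gene's dispersion over the trend was tested for 1016 member genes, and 1 passed an adjusted p of 0.05, beside 0.447% of all 4918 genes tested. This was Hnrnpab (adjusted p = 0.000835), highest in replicate 4 at 1008 counts and lowest in replicate 2 at 319. Its partner Phykpl ran from 33171 to 43343. Without replicate 4, or with library totals in place of edgeR's TMM scaling, no member passed. An unadjusted p under 0.05 was found for 28 of the 1016 member genes, 2.76%, against 5.71% of all genes tested.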

How the data were processed

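The authors deposited raw counts per gene for 4 T-helper 2 libraries, made with featureCounts 1.4.6-p4 on mm10 and GENCODE release M13 with strand option 1, read pairs with both ends aligned and exons grouped by gene, per the file headers. No source used here names an aligner. The assay title is total RNA-seq, while the protocol document in the labels is titled as poly(A) library construction. Symbols and gene types came from GENCODE M21 (99.6% of genes matched). Coordinates are the deposited ones, 1-based.

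Exons of each gene were merged and intersected by strand. Overlap length is the number of shared exon bases. Library totals ran from 1688658 to 2222583 counts. The members and lists were chosen with earlier results of these data known. Levels were compared within libraries with a pseudocount of 1 CPM, which understates differences of low genes, and an exact two-sided sign-flip test. Log2 ratios of a pair used counts plus 0.5. The plus and minus gene were compared with edgeR 4.0.16 (robust quasi-likelihood fit, library as a block, filterByExpr, Benjamini-Hochberg over all opposite-strand pairs), and spread between replicates with an intercept-only fit with 3 residual degrees of freedom. DESeq2 1.42.0 and limma 3.58.1 were alternatives, with R 4.3.3, Python 3.11.15, pandas 2.3.3 and scipy 1.17.1. The fits were tested on simulated data. Named pairs were the 10 with most counts, the 5 longest and 5 shortest overlaps, the 5 widest and 5 most even ratios, pairs with a marker gene, varying members, and the 2 pairs with most counts per family; a few of these are not reported here. Genes with near-identical copies are uncertain.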

Additional observations from a re-analysis of the deposited data

Results flagged for a closer look

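Values of each named gene, level and relation were looked at for a single library standing apart (Dixon's test, gap over range above the 95% critical value for 4 libraries). Of 110 values, 6 did, and chance gives about 1 in 20. The rho of overlap length and pair count was 0.464 in replicate 3 and 0.452 to 0.454 in the others. Csf1r was at 438 CPM in replicate 3, against 537 to 546 CPM elsewhere, and Nab2, the partner of Stat6, at 73.3 CPM in replicate 3, against 117 to 123 CPM. Ccdc22, the partner of Foxp3, was at 5.86 CPM in replicate 2, against 2.25 to 2.66 CPM. Tmem79 was at 15.8 CPM in replicate 2, against 11.8 to 12.2 CPM, and Lin37 at 2.96 CPM in replicate 1, against 0.90 to 1.17 CPM. The last 2 genes and Ccdc22 had fewer than 30 counts in each library.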

How the results depend on the processing

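The share of counts in member genes, 33.0%, was 18.5% for pairs with no further exon-sharing gene and 29.7% for overlaps of 100 bases or more, both of which hold fewer genes. It was 31.4% without the mitochondrial pair, 34.5% without CT010467.1 in the totals, and 32.5 to 33.6% when each replicate was left out. Spearman's rho of overlap and pair count was 0.441 for pairs with no further exon-sharing gene, 0.331 for overlaps of 100 bases or more and 0.470 for pairs with counts. Member pairs called by edgeR numbered 327 of 357 tested with no further exon-sharing gene. When each replicate was left out, 574 to 593 were called, of 635 to 646 tested. DESeq2 called 576 of 636 and limma 587 of 636. The share over all opposite-strand pairs was not taken for these alternatives. In the main setting it was 94.8%, so these counts are no result about the members. Of varying members, 0 of 1016 were called with library totals, beside 3 of all 4918 genes. There, 35 members (3.44%) had an unadjusted p under 0.05 in edgeR, against 4.92% of all genes. With no filter beyond a mean count of 1, 2 of 1380 members were called, beside 62 of all 13599 genes. These 2 were Hnrnpab and Trim41 (22, 25, 86 and 21 counts, edgeR adjusted p = 0.0368). Leaving out each replicate gave 0 to 1 member, beside 11 to 21 of all genes tested, with Hnrnpab lost without replicate 4. With DESeq2 size factors 1 member was called, beside 22 of all 4918 genes. Level differences kept their direction under the alternatives run, between 2.90 and 8.04 against unopposed genes, 1.47 and 4.28 against gap pairs and 0.73 and 1.29 against divergent pairs, but no setting could pass 0.05. Alternatives that leave out the mitochondrial pair or CT010467.1, ask for both genes at 10 counts or set short overlaps against short gaps were chosen after seeing the data.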
